A study of Mus musculus with 2 samples.

Results

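Ctla2a and Ctla2b are 2 of the 28692 genes counted in single-cell RNA-seq of mesenchymal stromal cells (MSC) from intestinal grafts. They were chosen on their measured levels and shares of positive cells per marker-gated stromal class and library, so those values are given as a description and no test was made on them. Embryonic large intestine (LI) or small intestine (SI) of EYFP (C57BL/6) mice, whose cells carry yellow fluorescent protein, was grown under the kidney capsule of adult WT hosts for 4 weeks. The embryos were offspring of EYFP males and C57BL/6Nrj females. MSC of graft origin were sorted as live YFP+ Itgb1+ cells that lacked CD45, Ter119, BP3, CD31, EpCAM and L1CAM, which removes blood, lymphoid stromal, endothelial, epithelial and glial cells. There was 1 library from LI grafts, for which colonic grafts were pooled, and 1 from SI grafts, for which the number of grafts was not given. With 1 library per group, the intervals given below are 95% intervals of counting error only, and a difference between libraries cannot be told apart from a difference between donors, hosts or kits (a 3′ and a 5′ kit were both named for the study).

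Ctla2a and Ctla2b encode small secreted proteins of rodents that resemble the propeptide of cathepsin-like cysteine proteases. In a cathepsin precursor the propeptide folds over the active site and keeps the enzyme silent until it is cut off. The Ctla2 proteins consist of such an inhibitory part without the protease, and CTLA-2α is known to inhibit cathepsin L. They were first found in activated T cells and mast cells, and Ctla2a has since been described in uterine decidua, endothelium and the eye.

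Both genes lie on the minus strand of chromosome 13 in the GRCm38 (mm10) assembly. Ctla2b (ENSMUSG00000074874) spans 60895350 to 60897447 and Ctla2a (ENSMUSG00000044258) spans 60934155 to 60936625, with 36707 bases between them in which the placental gene Tpbpb lies. The other neighbours are Tpbpa, the cathepsin L-like gene Ctsll3, 4930486L24Rik, BC051665 and the placental cathepsins Ctsj and Ctsq. Of these 7 genes, 5 had no UMI (unique molecular identifier, counted once per captured molecule) in either library, Tpbpa had 1 UMI in LI and 4930486L24Rik had 26 UMIs in LI and 21 in SI. Of the 9 counted genes of this stretch, Ctla2a and Ctla2b thus had the most captured UMIs.

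The start regions of the paralogs are printed because the letters are nearly the same while the captured UMIs were far apart in number. Each run holds 300 bases around the RefSeq start site, the last 50 of them after it, on the gene's own strand (GRCm38.p6), at chr13:60936576-60936875 for Ctla2a and chr13:60897398-60897697 for Ctla2b, and capitals mark aligned bases that differ from or are missing in the paralog, while ends that did not align are in lower case.
Ctla2a: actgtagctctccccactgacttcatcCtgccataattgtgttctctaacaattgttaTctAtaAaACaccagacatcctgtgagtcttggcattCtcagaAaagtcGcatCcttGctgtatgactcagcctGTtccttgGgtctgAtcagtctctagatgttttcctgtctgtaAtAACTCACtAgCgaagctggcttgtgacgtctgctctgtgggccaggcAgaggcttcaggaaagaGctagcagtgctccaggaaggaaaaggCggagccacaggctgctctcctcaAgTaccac
Ctla2b: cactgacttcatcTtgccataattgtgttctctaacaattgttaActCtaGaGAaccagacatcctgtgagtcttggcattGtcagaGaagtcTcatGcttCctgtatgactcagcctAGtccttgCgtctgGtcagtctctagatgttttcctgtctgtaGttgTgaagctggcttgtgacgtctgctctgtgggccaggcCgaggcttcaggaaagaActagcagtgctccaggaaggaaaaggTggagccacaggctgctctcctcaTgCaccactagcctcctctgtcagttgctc
Of 278 aligned bases, 256 (92.1%) were the same, and Ctla2a carried 8 further bases that Ctla2b lacked inside the aligned stretch. A second RefSeq start of Ctla2a was not used. Searched on both strands, the cyclic AMP response element core TGACGT was present in both windows, 50 bases before the start of Ctla2a and 72 before that of Ctla2b, and in 7.51% of all 32851 promoters of the table. The AP-1 site TGACTCA was also present in both, at 129 and 143 bases before the start, and in 5.2% of promoters. The TATA box letters TATAAA were found only in the Ctla2a window, 190 bases before the start, and in 13.6% of promoters. The letters TTCNNNGAA, bound by STAT proteins, were likewise in the Ctla2a window alone, 157 bases before the start, and in 8.3% of promoters. The half-site GGTCA was in the Ctla2b window alone and in 40.5% of promoters, and CCAAT was in neither and in 37.4% of promoters. No match overlapped another, and these are matches of letters in fixed windows.

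How far the paralogs could share reads depends on the read length, which the methods give for the cDNA read without naming the library. At that length, the 9 Ctla2a transcripts had no window in common with a Ctla2b transcript, except for 2 of 532 windows of Ctla2a-207, and of the Ctla2b transcripts Ctla2b-202 and Ctla2b-203 had 2 such windows each. Sharing was thus almost nil at the full read length and larger for shorter matches. In the longest annotated Ctla2a transcript, Ctla2a-201, 94 of 1324 windows of 50 bases also occurred in a Ctla2b transcript, whereas at 91 bases 1 of 1283 windows did. In its last 500 bases no window of either length was shared, whereas in 7 of the 8 shorter Ctla2a transcripts the last 500 bases had between 12.6% and 17.3% of 50-base windows in common with Ctla2b. Ctla2b-201 shared 11.9% of its 50-base windows with Ctla2a. The annotation also holds 3 read-through gene models over this stretch, Gm49391, Gm49392 and Gm49393, which are not among the counted genes.

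Cells with at least 500 genes and at most 10% mitochondrial (mt-) UMIs were kept, which left 9873 of 11568 barcodes in LI and 7910 of 9631 in SI, with a median of 5288 and 5682 UMIs. The libraries shared 26 barcodes, of which 14 passed the filter in both, and leaving the shared barcodes out changed no LI over SI ratio of Ctla2a by more than 0.01 on the log2 scale. Cells were gated on marker genes into fibroblasts (FB), mesothelial, mural and muscle cells and interstitial cells of Cajal (ICC). Each class was highest for its own marker list among the 5 classes, which gating on these same lists made likely. Mesothelial cells numbered 38 in LI and 24 in SI. A further 1477 LI and 515 SI cells met no gate, and 111 LI and 136 SI cells carried markers of other lineages.

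Ctla2a was 17.8 times as high in the LI as in the SI library over all cells. It had 29388 UMIs in LI, a pooled level of 482 CPM (UMIs of the gene scaled to the UMIs of all genes, interval 476 to 487), and 1396 UMIs in SI, 27 CPM (25.6 to 28.5). Ctla2b was scarce in both, with 269 UMIs (4.41 CPM) in LI and 118 UMIs (2.28 CPM) in SI. CPM are per UMI captured and not per base of transcript, so a difference in CPM between genes is one of captured UMIs and not of transcript level.

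In FB the level of Ctla2a was 485 CPM (478 to 491) in LI and 26.5 CPM (24.9 to 28.2) in SI, 18.3-fold (17.2 to 19.5) higher in LI. Of 8640 genes with at least 10 CPM in LI or SI FB, 51 (0.59%) were at least 4-fold higher in LI, and Ctla2a had the 7th highest ratio. This contrast was used to choose the gene. ICC, the Kit-expressing pacemaker cells of the gut wall, had 617 CPM (575 to 661) in LI, above FB over all cells but not within either sex, against 26.9 CPM (12.9 to 49.4) from 10 UMIs in SI. Muscle cells had 286 CPM (267 to 306) in LI and 38.4 CPM (33.1 to 44.4) in SI, an order that turned with classes taken from clusters (log2 ratio -1.29) and without the LI cluster led by Fgfbp1 (-0.98). Mural cells, the pericytes and vascular muscle-like cells of vessel walls, were low, with 73.9 CPM (62.8 to 86.5) in LI and 1.64 CPM (0.66 to 3.38) in SI. Their gate did not bar muscle genes, and the muscle list summed to 5141 CPM in LI and 8795 CPM in SI mural cells. In mesothelial cells, which cover the outer surface of the gut, the order was the other way round, with 21.2 CPM (8.53 to 43.7) from 7 UMIs in LI and 140 CPM (101 to 190) from 42 UMIs in SI. Over all cells of LI the 5 gated classes ranked ICC, FB, muscle, mural and mesothelial, but the order turned with the cells counted. Neighbouring intervals did not overlap, but they take UMIs as independent, and 1 LI mural cell held 128 of the 155 mural UMIs. Without the LI cluster led by Fgfbp1, LI mural cells had 9.66 CPM and LI mesothelial cells 22.9 CPM. In female LI cells FB (173 CPM) were above ICC (88.4 CPM), and mesothelial cells, at 23.7 CPM (8.7 to 51.6) from 6 UMIs, could not be placed below muscle (15.1 CPM) or mural cells (9.68 CPM). In male LI cells FB had 1918 CPM and ICC 1805 CPM, with intervals that overlap. With classes taken from clusters, ICC had 547 CPM and FB 546 CPM. LI cells that met no gate had 685 CPM (664 to 707), above all 5 classes, and held 13.8% of the LI Ctla2a UMIs, and LI cells of other lineages had 527 CPM (479 to 577). In SI these groups had 31.4 CPM (23.8 to 40.7) and 48.7 CPM (38.2 to 61.2).

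Within SI mesothelial cells led and mural cells were last, and FB and ICC could not be ordered. Muscle was 1.45-fold (1.23 to 1.7) above FB over all SI cells, but it had 9.78 CPM against 22.4 CPM in female cells and 30.8 CPM (22.6 to 41.1) against 35.1 CPM (31.8 to 38.6) in male cells. Only 23 and 46 of the 185 muscle UMIs lay in female and male cells, and the others in cells with both or neither mark of sex. Of the 185 Ctla2a UMIs of SI muscle, 42 came from 11 cells of a cluster led by Emcn, Egfl7 and Fabp4.

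**Figure D1:**
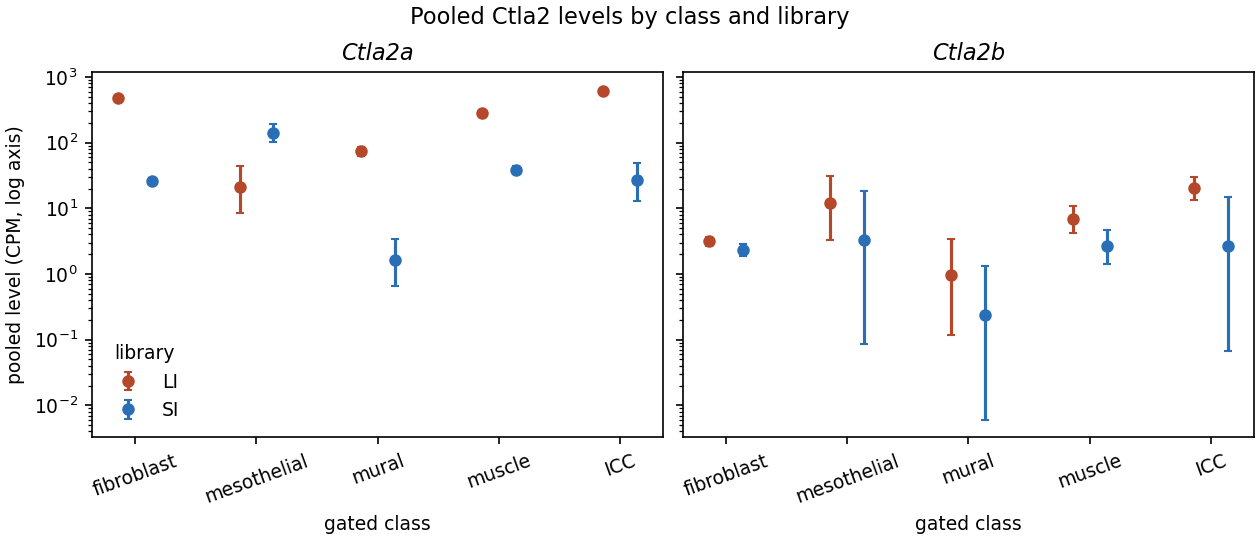
Pooled level in CPM (log axis) of Ctla2a (left) and Ctla2b (right) in 5 gated classes of the LI and SI libraries, with points for the pooled value of 1 library and bars for the 95% Poisson interval. Ctla2a lies higher in LI in 4 classes, of which muscle turned with classes from clusters and without the LI cluster led by Fgfbp1, and higher in SI in mesothelial cells (21.2 against 140 CPM), and Ctla2b lies between 0.235 and 20.2 CPM throughout.

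Few cells were positive. A Ctla2a UMI was found in 12.7% (12 to 13.5) of LI FB and 5.61% (5.02 to 6.24) of SI FB. After each cell was thinned to 2000 UMIs, which kept 6744 LI and 5349 SI FB, the shares were 7.5% and 2.43%. Positive cells were thus the minority in both libraries and more frequent in LI at equal depth. The thinned share was 16.4% in LI ICC, 6.57% in LI muscle, 2.31% in LI mural cells and 2.7% (1 of 37 cells) in LI mesothelial cells. In SI it was 4.69% in ICC, 8.33% (2 of 24 cells) in mesothelial cells, 2.3% in muscle and 0.407% in mural cells. ICC had the highest thinned share in LI, and mural cells the lowest in SI.

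No cell type known to lack Ctla2a was at hand as a measure of free RNA, so the clusters with the lowest level served instead. In LI this was a cluster of 1538 cells led by Col6a5, Adamdec1 and Plxna2 with a median of 5122 UMIs, which had a Ctla2a UMI in 2.41% of cells (4.9 CPM, 3.5 to 6.68). LI clusters led by Sox6 (2.19% of cells) and Agt (2.18%) had no higher share. Their levels were 10.5 CPM (7.44 to 14.3) and 8.83 CPM (5.39 to 13.6), and 2 cells of the Sox6 cluster had at least 8 Ctla2a UMIs. The unthinned share of LI mural cells, 3.53% at a median of 4233 UMIs, was little above it. In SI, a cluster of 406 cells led by Cd74, Saa3 and Ccl19 with a median of 8476 UMIs had no Ctla2a UMI, for which the limit of 3 UMIs is 0.88 CPM and the upper end of the interval 1.08 CPM.

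The UMIs were held by a small number of strongly positive cells. In LI the 1% of cells with the most Ctla2a UMIs (99 cells) held 70.5% of them, and the top 5% (494 cells) held 95.2%. In SI, 1% of cells (79 cells) held 62.3% and 5% held 98.9%. The highest count in 1 cell was 920 UMIs in LI and 101 UMIs in SI. At least 8 UMIs were found in 394 LI and 38 SI cells, whereas 461 of 1287 positive LI cells and 204 of 411 positive SI cells had 1 UMI.

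**Figure D2:**
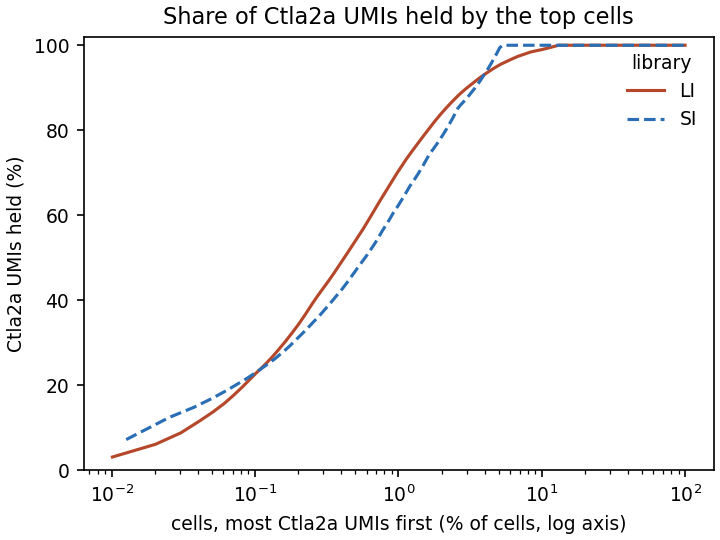
Percent of a library's Ctla2a UMIs (vertical axis) held by the given percent of its cells, taken from the highest count down (horizontal axis, log), for LI (solid) and SI (dashed). The top 1% of cells held 70.5% of the UMIs in LI and 62.3% in SI.

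To locate these cells, each library was clustered with both Ctla2 genes, the sex-marking genes and the mt- genes kept out. In LI, 1 cluster of 739 cells, led by Fgfbp1, the neuropeptide gene Tac2 and the MHC class II gene H2-Ab1, made up 7.49% of cells and held 72.4% of all Ctla2a UMIs. Its level was 2754 CPM (2717 to 2791), and 62.4% of its cells were positive at a median depth of 10300 UMIs. The cluster that came next held 1421 cells led by Myoc, Lpl and Angptl7, with 688 CPM (670 to 706) and 27.4% positive cells. Together these clusters held 91.6% of LI Ctla2a UMIs in 21.9% of cells. The ICC cluster, led by Kit, Prkcq and Ano1, followed with 547 CPM (513 to 582), ahead of a cluster led by the cell cycle genes Ube2c, Cenpf and Top2a with 130 CPM and one led by Cthrc1, Prg4 and Ptx3 with 99.1 CPM. The 4 lowest clusters were those led by Fmo2 (10.6 CPM), by Sox6 and Bmp7, which are PDGFRAhi markers (10.5 CPM), by Agt (8.83 CPM) and by Col6a5 and the Fgfr2 FB marker Adamdec1 (4.9 CPM).

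In SI the UMIs were also unevenly spread over clusters. A cluster of 394 cells led by Angptl7, Cthrc1 and Thbs4 had 135 CPM (125 to 146), 33.2% positive cells and 45.9% of the SI Ctla2a UMIs. All 24 SI mesothelial cells lay in this cluster, so their 140 CPM differed little from that of the 325 FB in it, which had 138 CPM. The higher pooled value of an SI cluster of 248 cells led by the endothelial genes Emcn and Egfl7, 167 CPM (134 to 205), came from 4.44% positive cells at a median depth of 1553 UMIs. Clusters led by Jam2 (50.9 CPM) and by the adventitial FB gene Pi16 (49.4 CPM) had 12% and 14.5% positive cells. The SI cluster led by Sox6, Rbp4 and Pcsk6 had 1 UMI in 377 cells, and the 2 clusters led by Col6a5, Adamdec1 and Epha5 had 3 and 4 UMIs in 555 and 467 cells. High MHC class II did not always go with Ctla2a, since the SI cluster led by Cd74 had 4125 CPM for the 4 MHC class II genes and no Ctla2a UMI, whereas the highest LI cluster had 2605 CPM for these genes.

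**Figure D3:**
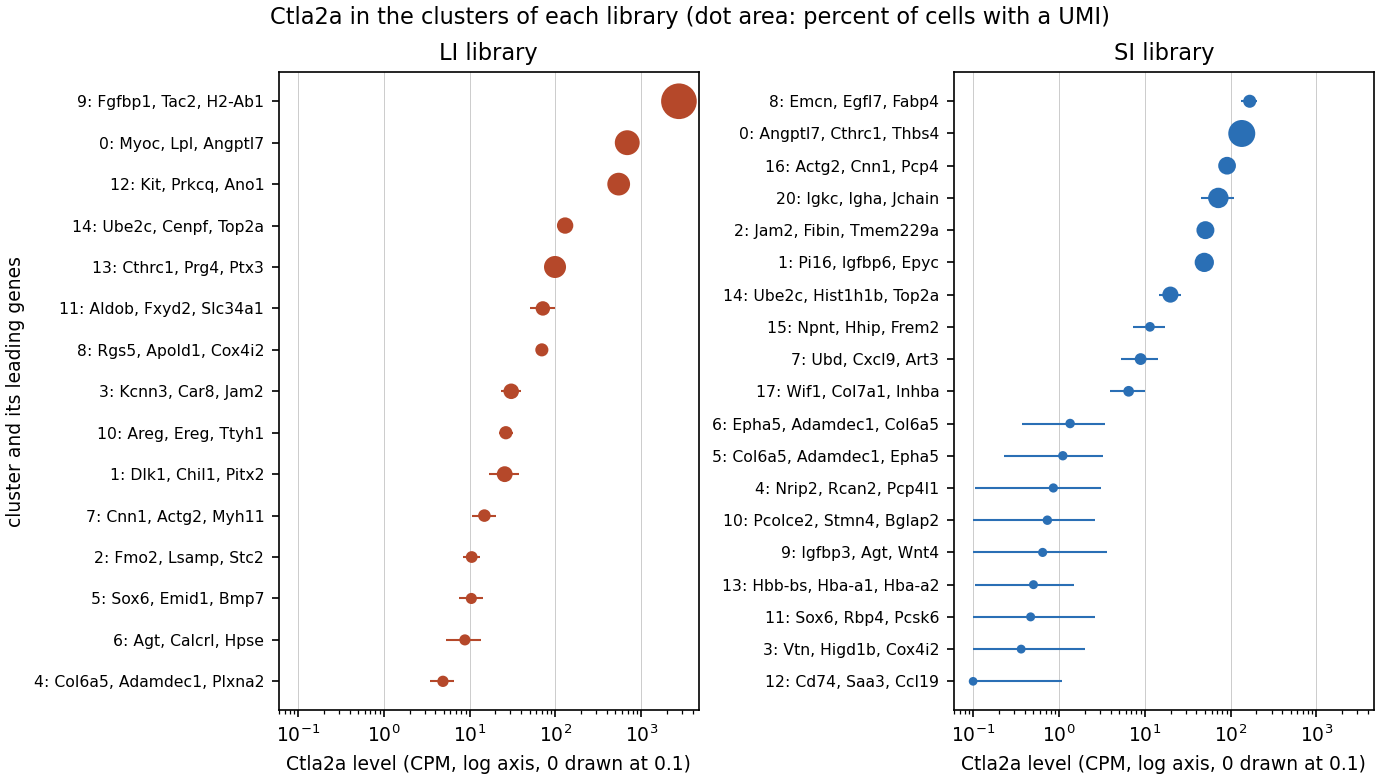
Ctla2a level in CPM (log axis) in every cluster of at least 50 cells in LI (left) and SI (right), each labelled by its number and 3 leading genes, with lines for the 95% Poisson interval and dot area for the percent of positive cells. The LI cluster led by Fgfbp1 stands highest at 2754 CPM, and 9 of 19 SI clusters lie below 2 CPM.

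The cluster led by Fgfbp1 also set the value of the LI mural and muscle gates. Of the 155 Ctla2a UMIs in LI mural cells, 135 (87.1%) came from 3 cells that lay in it, whereas the 428 mural cells of the cluster led by Rgs5 had 20 UMIs, 10.4 CPM. Of the 822 UMIs in LI muscle cells, 773 (94%) came from 28 cells of it, and the 297 muscle cells of the cluster led by Cnn1, Actg2 and Myh11 had 18.2 CPM. Without the cluster, a choice made after the data were seen, LI mural cells had 9.66 CPM and LI muscle cells 19.1 CPM, which is below the 38.4 CPM of SI muscle. The ICC value did not depend on it, since 94.6% of the Ctla2a UMIs of gated LI ICC lay in the ICC cluster. For FB, LI had 150 CPM without the cluster, a log2 ratio over SI of 2.46 against 4.14 with it. FB of the LI cluster led by Myoc, which remained, had 719 CPM and held 21.2% of the Ctla2a UMIs of LI FB.

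The sex of a cell is the one mark of the donor embryo in the counts, since male and female cells come from different embryos. Cells were called male by a Y-linked UMI (Ddx3y, Eif2s3y, Kdm5d or Uty) without Xist and female by Xist without a Y-linked UMI, which gave 889 male and 7967 female cells in LI and 1922 and 4353 in SI. This split was not used to choose the genes, but it has no replicates and was not tested, and sex cannot be told apart from embryo or graft. In LI FB, Ctla2a was at 1918 CPM (1883 to 1952) in 641 male cells and 173 CPM (169 to 177) in 5687 female cells, 11.1-fold (10.7 to 11.4) higher in male cells. Of 8756 genes with at least 10 CPM in either, 79 (0.902%) were at least 4-fold higher in male LI FB, and Ctla2a was the 22nd. In SI FB the values were 35.1 CPM (31.8 to 38.6) in 1349 male and 22.4 CPM (20.3 to 24.6) in 3211 female cells, 1.57-fold (1.37 to 1.8) higher in male cells. There 22 of 8619 genes (0.255%) were at least 4-fold higher in male cells, and Ctla2a was not among them. At 2000 UMIs per cell the positive share was 22.7% of male and 4.96% of female FB in LI, and 2.64% and 2.23% in SI. ICC of LI differed in the same direction, with 1805 CPM (1641 to 1980) in 44 male and 88.4 CPM (69.7 to 111) in 214 female cells. LI muscle cells had 1306 CPM in 35 male and 15.1 CPM in 444 female cells. In LI FB male cells were deeper, with a median of 9033 UMIs against 5547, and the 199 FB with both marks had 1247 CPM (1202 to 1292) and the 445 with neither 683 CPM (651 to 716).

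**Figure D4:**
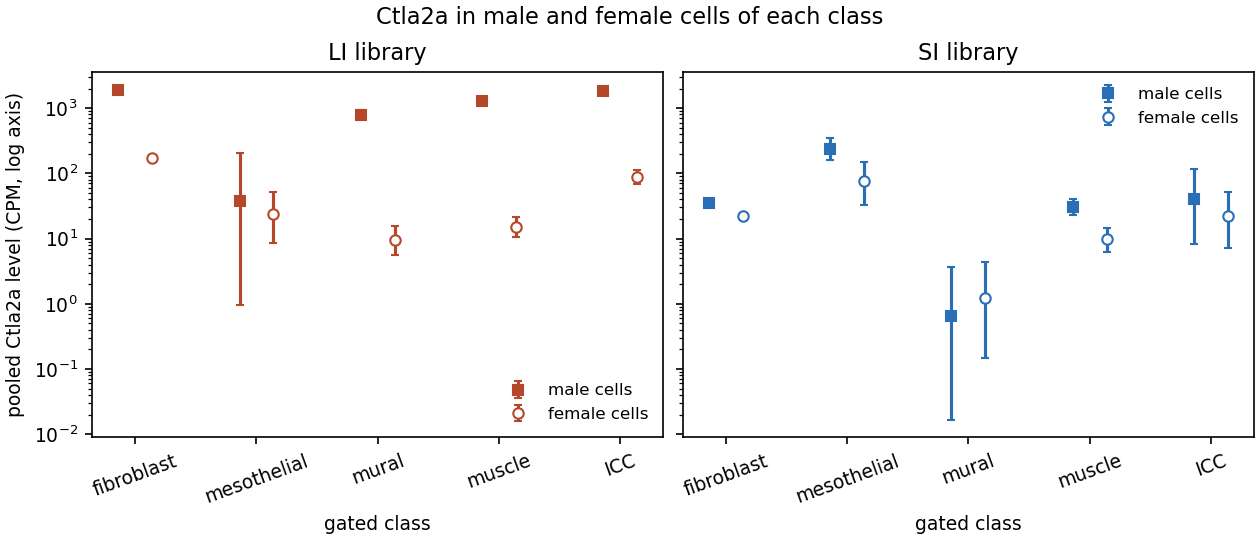
Pooled Ctla2a level in CPM (log axis) in male cells (squares) and female cells (open circles) of 5 gated classes in LI (left) and SI (right), with 95% Poisson intervals. In LI FB and ICC the male values (1918 and 1805 CPM) lie far above the female values (173 and 88.4 CPM), and in SI FB the pair is 35.1 and 22.4 CPM.

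Among FB, the LI difference by sex lay in 1 cluster. The cluster led by Fgfbp1 held 46.8% of male and 0.598% of female LI FB. Inside it, 300 male FB had 3204 CPM (3146 to 3262) and 34 female FB had 1748 CPM (1619 to 1885). Outside it, 341 male FB had 84.1 CPM (73.3 to 96) and 5653 female FB had 156 CPM (152 to 160), so male cells were lower, at 0.538-fold (0.468 to 0.616). A cluster led by Areg, Ereg and Ttyh1 held 323 male cells of LI with 31.1 CPM, whereas the cluster led by Myoc held no male cell and 1378 female cells with 681 CPM. The ICC cluster differed by sex within itself, with 1536 CPM (1409 to 1671) in 61 male and 59 CPM (45.5 to 75.1) in 265 female cells. Over all LI cells outside the cluster led by Fgfbp1, male cells were higher, at 1.56-fold (1.45 to 1.68). In female cells alone LI FB were still higher than SI FB, 173 against 22.4 CPM. Of the 7402 Ctla2a UMIs of female LI cells of all classes, 5516 lay in the cluster led by Myoc.

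Ctla2b made up 0.645% (0.546 to 0.757) of the Ctla2 UMIs of LI FB and 8.18% (6.63 to 9.94) of those of SI FB. In female FB the shares were 0.865% and 9.26%, so the gap between libraries was present within 1 sex. Of the gated classes LI ICC had the largest Ctla2b level over all cells, 26 UMIs or 20.2 CPM (13.2 to 29.6). This was 6.41-fold (4.06 to 9.77) above LI FB at 3.15 CPM (2.66 to 3.69), but overlapped LI mesothelial cells at 12.1 CPM (3.3 to 31.1). In male LI ICC Ctla2b was at 64.6 CPM (36.9 to 105), from 16 UMIs in 44 cells, against 1 UMI in 214 female ICC. Female LI ICC thus had 1.16 CPM, not above the 1.51 CPM of female LI FB. Ctla2b stood at 2.36 CPM (1.9 to 2.89) in SI FB, so LI was 1.34-fold (1.02 to 1.75) higher. With 1 CPM added to each level, the log2 ratio was 0.31, and it turned to -0.39 in female cells alone and to -0.44 without the cluster led by Fgfbp1. Ctla2b was at 6.96 and 2.7 CPM in LI and SI muscle, and had at most 2 UMIs in the mural cells of both libraries. In mesothelial cells it had 4 UMIs in LI and 1 UMI in SI.

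Cells with more Ctla2a had more Ctla2b, on a scale already divided by depth. The median depth was 5082 UMIs in LI cells without Ctla2a and 14055 UMIs in those with the most. Ctla2b was at 1.21 CPM (0.927 to 1.56) in LI cells with no Ctla2a UMI, 11.3 CPM (8.98 to 14.1) in cells with 1 to 7, 22.8 CPM (17.8 to 28.9) in cells with 8 to 49 and 37.4 CPM (28.6 to 48) in the 117 cells with 50 or more. The same steps in SI gave 1.18 CPM (0.89 to 1.53), 13.1 CPM (9.63 to 17.4) and 20.9 CPM (10.4 to 37.4), and 2 cells had 50 or more. At 1 to 7 and at 8 to 49 Ctla2a UMIs, the libraries thus had Ctla2b levels with overlapping intervals. The 117 LI cells with 50 or more Ctla2a UMIs held 74.1% of LI Ctla2a UMIs, against 12.5% in the 2 SI cells. Without the cluster led by Fgfbp1, the Ctla2b share in LI FB was 0.967%. In cells thinned to 2000 UMIs both genes were detected in 39 LI cells, against 5.64 from the product of the shares, and in 9 SI cells, against 0.803. Of thinned Ctla2b-positive cells, 57.4% in LI and 28.1% in SI were Ctla2a-positive, compared with 8.29% and 2.51% of all cells.

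The genes with the highest ratio of detection in Ctla2a-positive over negative FB, as a mean of both libraries, were Thbs4, Mpp6, Lbp, Smoc2, Ptn, Gm12840, Fxyd6, H2-Aa, Cpe and Igfbp6. Here 506 positive and 6238 negative LI FB and 130 positive and 5219 negative SI FB were compared at 2000 UMIs. Thbs4, a matrix protein of tendon and muscle attachments, was found in 24.5% of positive and 7.45% of negative LI FB and in 23.8% and 4.31% of SI FB. Ptn, which encodes the growth factor pleiotrophin, was in 52.4% and 21.6% in LI and 71.5% and 27.7% in SI. Igfbp6, a binder of insulin-like growth factor II, was in 63.2% and 26.6% in LI and 50.8% and 22.1% in SI. Smoc2, a matricellular protein, was in 20.9% and 7.74% in LI and 66.2% and 25.5% in SI. Lbp, which encodes lipopolysaccharide-binding protein, was in 34.6% and 15% in LI and 25.4% and 8.03% in SI. Fxyd6, a regulator of the sodium pump, was in 53.8% and 25.5% in LI and 71.5% and 24.5% in SI. Mpp6, Gm12840 and Cpe lay between 11.3% and 34.6% in positive and between 4.16% and 10.7% in negative FB of either library.

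All 10 genes were chosen from these same FB, so that they were more frequent in Ctla2a-positive FB within each sex is no separate result. Ranked within 1 sex, 6 of the 10 were shared in female and 4 in male cells. How large the difference was depended on sex. H2-Aa, an MHC class II gene, was in 20.8% of positive and 5.77% of negative LI FB, and in female LI FB in 4.36% of 275 positive and 3.21% of 5272 negative cells. Thbs4 in female FB was in 14.2% and 6.16% in LI and in 29% of 69 positive and 5.35% of 3030 negative cells in SI. In male LI FB, H2-Aa was in 45.8% of 144 positive and 21.6% of 490 negative cells, and Thbs4 in 39.6% and 17.8%.

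**Figure D5:**
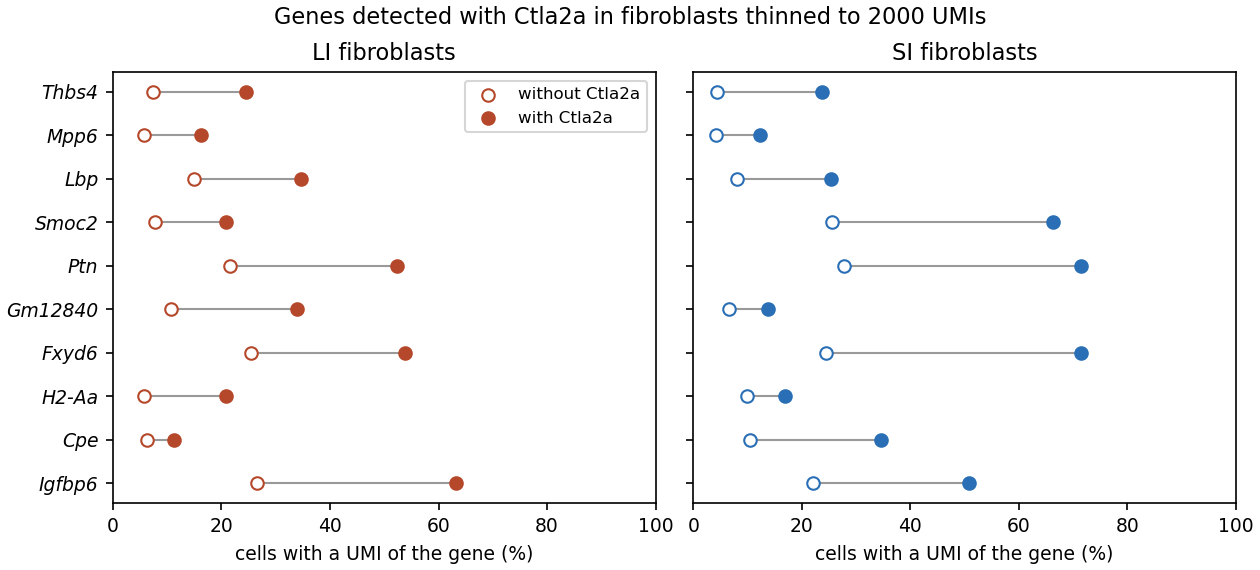
Percent of FB with a UMI of each of 10 genes (horizontal axis) among cells with Ctla2a (filled) and without it (open) in LI (left) and SI (right), each cell thinned to 2000 UMIs. Thbs4 was in 24.5% of positive and 7.45% of negative LI FB and in 23.8% and 4.31% of SI FB.

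Of the FB subset lists, the Fgfr2 FB list (Fgfr2, Adamdec1, Edil3 and Ccl11) had all 4 genes less often in Ctla2a-positive FB of both libraries, with a median log2 ratio of shares (1 percentage point added to each) of -1.73 in LI and -2.22 in SI. Of all genes found in at least 10% of Ctla2a-positive or negative FB, a floor not asked of the lists, 53.9% of 3099 were more and 46.1% less frequent in positive LI FB, and 58% and 42% of 3329 in SI FB, with medians of 0.02 and 0.05. Adamdec1 was in 15.2% of positive and 52.9% of negative LI FB and in 10.8% and 46.6% of SI FB. The PDGFRAhi list was below 0 for 5 of 7 genes in LI and 6 of 7 in SI, with medians of -1.06 and -1.23. Apart from Wnt5a and F3, its genes were in at most 1.58% of positive FB. Among these, Bmp5 was in 0.988% of positive and 10.5% of negative LI FB and in 0% and 7.11% of SI FB. Wnt5a was in 12.6% and 11.3% in LI and 20% and 15.1% in SI. F3 was in 15% and 12.5% in LI and 7.69% and 11.5% in SI. The CD90/Igfbp5 list was above 0 for 2 of 3 genes in both, with medians of 0.09 and 0.34, a share close to that of all genes. The Pi16 list had medians of 0.74 in LI, where all 4 genes were above 0, and 0.11 in SI, where 2 were. The CD81 list was above 0 for 4 of 5 genes in LI and 1 of 5 in SI, with medians of 0.35 and -0.33. The gene above 0 in SI was Cd81 itself, found in 65% of positive and 40.7% of negative LI FB and in 76.2% and 38.6% of SI FB, while Grem1, C3, Cd34 and Rspo3 had log2 ratios of -0.33, -0.07, -0.35 and -0.77 there. The MHC class II list had medians of 1.64 in LI and 0.42 in SI. The 4 cycling genes were in 0.593% to 0.988% of positive LI FB and 0.769% to 2.31% of positive SI FB, too few for a ratio to be read.

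Because Ctla2a is known from endothelium and immune cells, their marker lists were set beside it. In LI FB with at least 8 Ctla2a UMIs, the 9 endothelial markers summed to 50.4 CPM (43.4 to 58.3) and Pecam1, Cldn5 and Tie1 were at 0, whereas FB without Ctla2a had 16.1 CPM (14.8 to 17.4). In thinned cells, 3 of the 9 were more and 6 less frequent in Ctla2a-positive LI FB, and 1 was more and 6 less frequent in SI FB, but most were too rare at this depth for a ratio to be read. Flt1, the receptor VEGFR1, was the most frequent in positive FB of both, with 4.74% of positive and 0.946% of negative LI FB and 2.31% and 0.364% of SI FB. In SI FB the list summed to 36.7 CPM (19.6 to 62.8) and 13 CPM (11.8 to 14.2), and Pecam1, Cdh5, Cldn5, Emcn and Tie1 were at 0 in the former. The 10 immune markers in the same groups of LI FB summed to 19.7 CPM (15.4 to 24.8) and 20.8 CPM (19.4 to 22.3), and Ptprc, Cd3e, Cpa3 and Mcpt4 were at 0 in the former. In SI FB they summed to 17 CPM (6.22 to 36.9) and 22.7 CPM (21.2 to 24.4), with 8 of the 10 at 0 in the former. Among all 394 LI cells with at least 8 UMIs, 4 had a UMI of Pecam1 or Cdh5 and 1 had a UMI of Ptprc, the CD45 gene, and among the 38 such SI cells 3 and 0 did. The 21 LI and 25 SI cells with at least 3 endothelial markers had 416 and 127 CPM and held 0.262% and 2.72% of the Ctla2a UMIs. Mesothelial markers summed to 104 CPM (93.7 to 115) in LI FB with at least 8 Ctla2a UMIs and 49.3 CPM (47.2 to 51.6) in those without, with Upk3b, Lrrn4, Upk1b and Muc16 at 0 in the former. In thinned LI FB 1 of the 8 was more frequent in Ctla2a-positive cells, Wt1 (15.6% and 4.1%), and 5 were less frequent, among them Nkain4 (1.58% and 4.18%). In SI FB the mesothelial list summed to 87.6 CPM (59.5 to 124) and 63.9 CPM (61.3 to 66.6), and Wt1 was in 4.62% and 2.59% of thinned cells.

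The ICC, as the gated class with the highest thinned share of positive cells in the mean of both libraries, had 46 positive cells in LI and 3 in SI. The genes ranked there (Xdh, Pknox1, Sorcs2, Ttc9c, Ptger3, Cd55, Ofd1, Zfp651, Ipo5 and Prkaa1) thus rest on 1 or 2 SI cells each and are not described further.

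Across 34 clusters of at least 50 cells (15 LI and 19 SI), Ctla2b followed Ctla2a with a Pearson r of 0.77 of log2(CPM + 1), 0.72 within LI and 0.94 within SI. Of 10561 other genes with at least 10 CPM in a cluster of each library, the most similar were Arhgef28 (r = 0.73), Lgals3, Moxd1 and Epb41l3 (0.72 each), Thbs4 (0.71), Asns, Clu and H19 (0.70 each) and Serinc2 and Chrdl2 (0.69 each). This r spans both libraries, which differ in Ctla2a level, and within a library it was mostly lower and in another order, from 0.44 (Serinc2) to 0.80 (H19) within LI and from 0.54 (H19) to 0.75 (Arhgef28 and Clu) within SI. Clusters of a library share its depth and donors, so these are descriptions without a p-value. Lgals3 (galectin-3) reached 342 CPM in the LI cluster led by Fgfbp1, and Thbs4 was at 439 CPM there. Thbs4 was thus in both rankings, over clusters and within FB.

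Of 23 cathepsin genes listed, 11 had at least 10 CPM in a class, and all 11 were within 2-fold between LI and SI FB, with a median log2 ratio of 0.17, as were 8342 of all 8640 genes tested (96.6%), with a median of -0.01, so the share is near that of all genes. Ctsl, the known target of CTLA-2α, was at 1443 CPM in LI FB and 1465 CPM in SI FB, and at 359 to 618 CPM in mural, muscle and ICC of both libraries. Ctsl was found in 87.4% of Ctla2a-positive and 88.6% of negative LI FB and in 90% and 88.8% of SI FB. The collagen-degrading Ctsk, a marker of FB and osteoclasts, was at 253 CPM in LI FB and 224 CPM in SI FB. Ctsb, Ctsd and Ctsz, the broad lysosomal proteases, were at 600, 333 and 315 CPM in LI FB and 537, 355 and 314 CPM in SI FB. Ctsa, Ctsc, Ctsf, Ctsh, Ctso and the asparaginyl protease Lgmn lay between 32.8 and 216 CPM in LI FB and between 39.1 and 189 CPM in SI FB. Lgmn was in 22.9% of positive and 34.4% of negative LI FB and in 24.6% and 30.5% of SI FB. No UMI was found for 9 cathepsins, which were Ctsg and all 8 listed placental ones.

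Of 21 other inhibitor genes listed, 4 had at least 10 CPM in a class and 11 had no UMI. Of the 4, 1 was at least 2-fold higher in LI FB, the kininogen gene Kng2, with 19.7 CPM in LI and 1.53 CPM in SI, which is named here after its values were seen. Of all 8640 genes 1.85% were at least 2-fold higher in LI FB. Cst3 (cystatin C), the main secreted cathepsin inhibitor, was at 1497 CPM in LI FB and 1322 CPM in SI FB. Cstb (cystatin B) was at 247 and 178 CPM and Serpinb6a at 361 and 362 CPM. The contrast between LI and SI FB was used to choose Ctla2a, so its 18.3-fold ratio beside these genes is a description only. The 14 cathepsin and inhibitor genes with at least 50 CPM had log2 ratios from -0.25 (Ctso) to 0.61 (Ctsc). Kng2, which did not reach 50 CPM, had 3.04, Ctla2a 4.14 and Ctla2b 0.31.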

How the data were processed

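MSC from the LI and SI grafts were profiled by droplet single-cell RNA-seq. The authors aligned the reads to mm10 with Cell Ranger (version 3.1.0 per the submitters' processing notes, which also name Seurat 3) and deposited raw counts, the UMIs per gene and barcode, with no normalization. The annotation release and the kit of each library were not given in the sources used here. Over all deposited barcodes the depth was 63348069 UMIs in LI and 54918006 in SI, at least 500 UMIs per barcode.

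Cells had at least 500 genes and at most 10% mt- UMIs. Scrublet called 0 doublets at its own threshold, so none were removed, and removing the 1071 LI and 742 SI barcodes with the highest scores (0.8% per 1000 barcodes) was an alternative. FB needed a UMI of at least 4 of 7 markers and 2 of Pdgfra, Dpt and Lum, mesothelial cells 3 of 8, mural and muscle cells 4 of 8 and ICC 3 of 7. These thresholds were set after the data were seen. Libraries were clustered separately in scanpy 1.11.5 (2000 variable genes, 30 components, 20 neighbours, Leiden resolution 1). Clusters are called by their leading genes.

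Level is pooled CPM with an exact Poisson interval, shares have Clopper-Pearson intervals and ratios exact binomial intervals. Folds are of CPM, and log2 ratios have 1 CPM added, or 1 percentage point for shares of cells. Named genes were Ctla2a, Ctla2b, their neighbours, listed cathepsins and inhibitors with at least 50 CPM in a class, the 10 genes most similar over clusters and the 10 most co-detected, which had to be in at least 10% of positive cells of both libraries. The 2 genes and all lists were chosen with earlier results of these data known. Scripts were tested on simulated counts. Promoters came from RefSeq tables and transcripts from GENCODE vM21.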

Additional observations from a re-analysis of the deposited data

Results flagged for a closer look

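The Ctla2a ratio of LI over SI was below 0 on the log2 scale in mesothelial cells (-2.67) and above 0 in the other 4 classes, of which muscle turned to -1.29 with classes from clusters and -0.98 without the LI cluster led by Fgfbp1. The opposite direction drew attention to it. It rests on 7 LI and 42 SI UMIs in 38 and 24 cells. Of the LI cells 29 lay in a cluster led by Upk3b, Krt19 and Krt18 (20.9 CPM), whereas all 24 SI cells lay in the FB cluster led by Angptl7, and the difference between classes was not tested.

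Barcodes outside the cell filter, which count toward the depth of the libraries and in part toward a looser filter but toward no level printed in the report, carried more Ctla2 UMIs than the limit of 3. There were 174 Ctla2a UMIs (74.8 CPM) and 6 Ctla2b UMIs (2.58 CPM) in 1695 LI barcodes, and 50 Ctla2a UMIs (15.3 CPM) and 12 Ctla2b UMIs (3.68 CPM) in 1721 SI barcodes. Ctla2a was lower there than in the cells kept, while Ctla2b was lower in LI and higher in SI, with intervals that overlap those of the cells kept.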

How the results depend on the processing

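Across the alternatives, the Ctla2a log2 ratio of LI over SI ranged from 2.46 to 5.73 in FB, 1.94 to 7.02 in ICC, 1.44 to 8.89 in mural cells and -3.49 to -1.63 in mesothelial cells, with no change of direction, and from -1.29 to 5.36 in muscle, which changed direction. In FB it moved to 4.09 with classes from clusters, 3.95 with a stricter gate, 3.83 as a mean of per-cell CPM, 2.90 in female and 5.73 in male cells, 3.96 with 5 CPM added and 2.46 without the LI cluster led by Fgfbp1. In ICC it moved to 7.02 with at least 1000 genes and at most 5% mt- UMIs, 3.56 with a stricter gate and 1.94 in female cells. In mural cells it moved to 3.82 with classes from clusters, 1.44 with a stricter gate, 4.07 per cell, 2.27 in female and 8.89 in male cells, 3.57 with 5 CPM added and 2.01 without that cluster. In muscle it moved to 3.35 with at least 1000 genes and at most 5% mt- UMIs, 1.44 with a stricter gate, 1.75 per cell, 0.58 in female and 5.36 in male cells, and reversed to -1.29 with classes from clusters and -0.98 without that cluster. For Ctla2b in FB it reversed to -0.20 with a stricter gate, -0.39 in female cells and -0.44 without that cluster, and moved to 1.57 in male cells. Ctla2b also reversed in ICC in female cells (-1.33) and in muscle with classes from clusters (-0.87) and without that cluster (-0.53). The log2 ratio of male over female LI FB moved to 3.54 without doublets, 3.58 with a stricter gate and 3.13 per cell, and reversed to -0.89 without that cluster. In SI FB it moved to 0.17 with a stricter gate and 0.29 per cell. The cause of these changes was not tested. No mesothelial cluster was named in SI, so that class has no value from clusters. Male cells alone, leaving out that cluster or the shared barcodes, and every alternative for sex were added after the data were seen. Of the 10 most similar genes 7 were shared without a minimum CPM and 6 by Spearman rho, and of the 10 co-detected genes 6 were shared at 1000 UMIs, 6 in female and 4 in male cells. No paired analysis was possible because there is 1 library per group. Depth limits Ctla2b, which had at most 26 UMIs in any class other than FB, and Ctla2a in LI mesothelial and SI mural cells, with 7 UMIs each.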
